A study of Arabidopsis thaliana with 6 samples.

Results

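The clade A protein phosphatases of type 2C are the negative regulators at the core of abscisic acid signalling. The set comprised 9 Arabidopsis thaliana genes out of 27444 nuclear protein-coding genes, namely HAB1 (AT1G72770), HAB2 (AT1G17550), ABI1 (AT4G26080), ABI2 (AT5G57050), PP2CA (AT3G11410), AHG1 (AT5G51760), HAI1 (AT5G59220), HAI2 (AT1G07430) and HAI3 (AT2G29380). They are given by locus, with no measured value in the rule, but the set was proposed with earlier results of these data known. All 9 loci carried these symbols in the RefSeq gene table. A gene counted as having a peak when a peak overlapped its span or lay within 1 kb of it on either side. By this rule 8 of 12491 deposited peaks belonged to the set, and they lay at 5 of the 9 genes.

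The peaks came from chromatin immunoprecipitation followed by sequencing (ChIP-seq) of the DEK-domain chromatin protein AtDEK3, which the series set out to map across the genome. All 6 samples were Col-0 seedlings overexpressing AtDEK3 with a cyan fluorescent protein (CFP) tag, grown on soil for 14 days with 16 h of light and 8 h of darkness, and none was a wild-type or untagged plant. The 3 ChIP libraries were made with an antibody against green fluorescent protein from the independent lines OE3-1, OE9-1 and OE17-4, 1 library per line, and the 3 inputs were not analysed here. The promoter that drives the transgene is not given in the sources used here. The lines were treated as 3 replicates, with no second group to compare, so counts of genes are set beside the same count over all protein-coding genes and no p-value is given. Since whole seedlings were used, binding in few cells and weak binding in many cannot be told apart.

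In the absence of abscisic acid these phosphatases keep SnRK2 protein kinases dephosphorylated and inactive. When the hormone binds a receptor of the PYR/PYL family, the receptor docks onto the phosphatase and blocks its active site, which frees the kinases to phosphorylate transcription factors and ion channels. Transcription of many clade A genes is itself induced by abscisic acid, which closes a negative feedback loop, and the pathway governs seed dormancy, stomatal closure and the response to drought and salt.

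In all, 5332 peaks were deposited for OE3-1, 3733 for OE9-1 and 3426 for OE17-4. Reads inside them numbered 1235876, 814853 and 549029 in that order. Peaks near clade A genes made up 0.0750%, 0.0268% and 0.0876% of these lists. Total sequencing depth is unknown, since the lists hold only reads inside peaks, so reads are compared within a list and not between lines.

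DEK3-CFP peaks were found at HAB1, HAB2 and AHG1 in OE3-1, at PP2CA in OE9-1, and at HAB1, HAB2 and HAI1 in OE17-4. ABI1, ABI2, HAI2 and HAI3 had no peak within 1 kb in any line. In OE3-1 this was 3 of 9 genes (33.3%, exact 95% interval 7.49 to 70.1%), where 22.5% of all protein-coding genes had a peak. In OE9-1 it was 1 of 9 (11.1%, exact 95% interval 0.281 to 48.2%), with a background of 12.2%. In OE17-4 it was again 3 of 9 (33.3%, with the same interval), with a background of 13.9%. The background lay inside the interval in each line. These intervals cover counting error over 9 genes only, and several of the genes are close relatives.

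**Figure D1:**
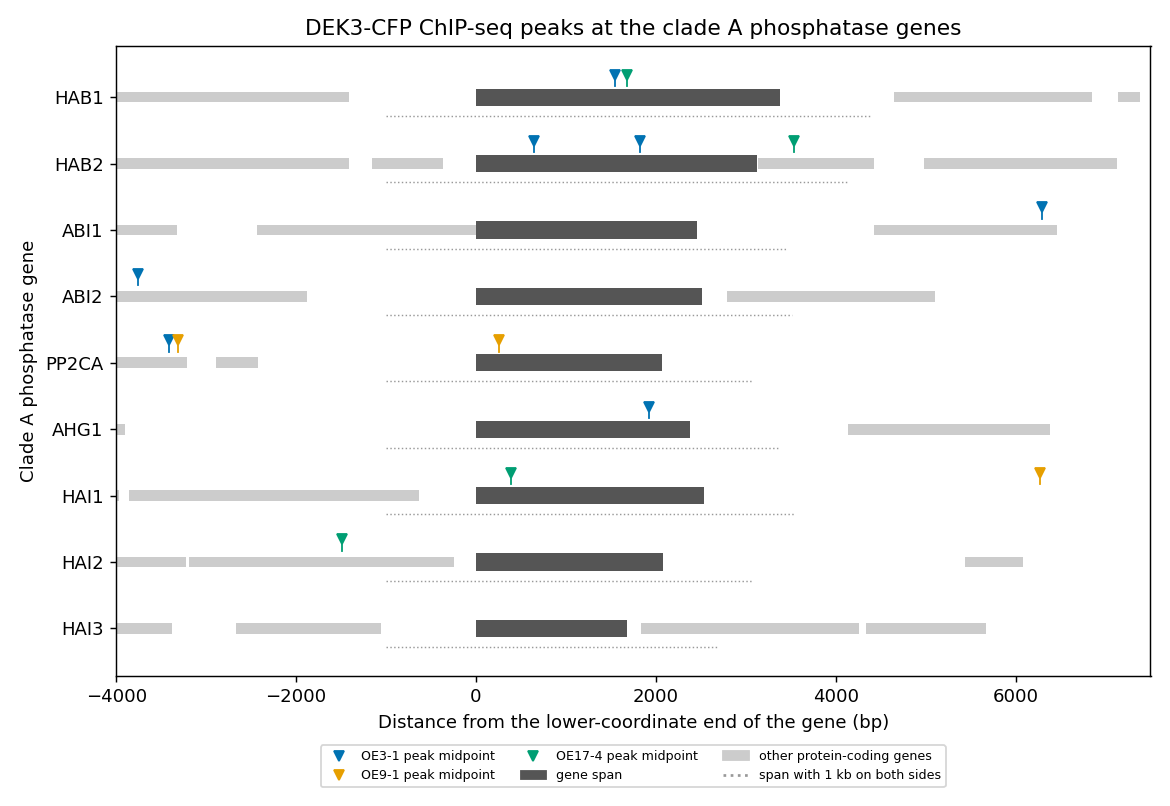
Map of the 9 clade A phosphatase genes to scale, with the distance in bp from the gene end of lower coordinate on the horizontal axis and a row per gene. Dark bars are gene spans, pale bars other protein-coding genes, dotted lines the span with 1 kb on both sides, and triangles peak midpoints coloured by line. Peaks inside a span occur in 5 genes, and the OE17-4 peak beside HAB2 lies over its neighbour.

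Over the lines together, 5 of 9 genes had a peak in any line (55.6%, exact 95% interval 21.2 to 86.3%), against 41.0% of all protein-coding genes. HAB1 and HAB2 had a peak in at least 2 lines, which is 2 of 9 genes (22.2%, exact 95% interval 2.81 to 60.0%) against a background of 7.20%. No member had a peak in all 3 lines, which was also rare among all genes, at 0.426%. Both genes with peaks in 2 lines owed them to the pair OE3-1 and OE17-4. Without either of these lines the count in at least 2 lines was therefore 0. The share of all genes was then 1.64% without OE3-1 and 2.68% without OE17-4.

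The members spanned 1676 to 3380 bp with a median of 2462 bp, against 2078 bp for all protein-coding genes. HAB1 and HAB2, the pair with peaks in 2 lines, were the longest of the 9, and HAI3, without a peak, was the shortest. Between them the order did not follow length, since ABI2 (2510 bp) and ABI1 (2462 bp) had no peak while the shorter AHG1 (2384 bp) and PP2CA (2069 bp) did. Among the 12374 protein-coding genes within the same range of length, 23.9% had a peak in OE3-1, 11.8% in OE9-1 and 14.5% in OE17-4. Peaks in any line occurred in 42.4% of them, in at least 2 lines in 7.48% and in all 3 lines in 0.380%.

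When the gene span alone was counted, the set had 3 genes in OE3-1, 1 in OE9-1 and 2 in OE17-4, against backgrounds of 15.7%, 5.26% and 9.22%. The same 5 genes had a peak in any line, where 26.8% of all genes did. HAB1 was then the single member with peaks in at least 2 lines, against 3.21% of all genes, and again none had them in all 3 lines (0.186%).

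HAB1 (hypersensitive to ABA1) encodes a phosphatase that docks with PYR/PYL receptors and inhibits SnRK2 kinases. Its OE3-1 peak lay at chr1:27391470-27391516 (TAIR10), with a deposited length of 46 bp and 234 reads, 125 forward and 109 reverse. Its OE17-4 peak lay at chr1:27391568-27391693, with a length of 126 bp and 156 reads, 81 forward and 75 reverse. OE9-1 had no peak there, and its nearest one lay 45.6 kb away.

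Both HAB1 peaks sat near the middle of the gene, with midpoints at 45.7% and 49.8% of the span from the end of lower coordinate. They did not overlap, and 51 bases separated them. Of the 1027 protein-coding genes with peaks of both OE3-1 and OE17-4 within 1 kb, 141 (13.7%) had them this close or closer, including 106 with overlapping peaks, and the median separation was 1082 bases. The gene table gives neither strand nor exons, so the start of a gene, its promoter, exons, introns and untranslated regions were not separated here.

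The false discovery rate (FDR) that the authors gave a peak was used to place it within its own list. The HAB1 peak of OE17-4 had an FDR of 0.22%, rank 780 of 3426 or within the best 22.8% of that list. The HAB1 peak of OE3-1 had an FDR of 2.22% and rank 2551 of 5332, in the middle of that list (47.8%). By reads, the peaks stood at 33.3% and 33.4% from the top of their lists, so their places by reads were close while those by FDR were not.

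HAB2 (homology to ABI2) is the closest relative of HAB1 and has the same role. In OE3-1 it carried a pair of peaks, the only member with more than 1 peak in a line. The first lay at chr1:6034875-6034956 with 195 reads and an FDR of 1.44%, at 20.6% of the span. The second lay at chr1:6036067-6036112 with 249 reads and an FDR of 0.37%, at 58.2% of the span. The second ranked 587 of 5332 by FDR, within the best 11.0% of the list, which made it the best-placed of the 8 peaks by that measure.

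The OE17-4 peak counted for HAB2 lay outside the gene. It spanned chr1:6037738-6037873 with 144 reads, 88 forward and 56 reverse, and began after 339 bases beyond the HAB2 span. Only 6 bases part HAB2 from HLL (AT1G17560), and the peak lay inside HLL, at 30.9% of that gene's span, although the deposited list names HAB2 for it. HLL (HUELLENLOS) encodes a mitochondrial ribosomal protein known for its role in ovule development. Its FDR of 2.34% placed the peak at 71.8% of the OE17-4 list, the lowest place among the 8. It lay 1625 bases from the nearer OE3-1 peak of HAB2, a separation that 67.4% of genes with both lines matched or undercut.

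HAB1 and HAB2 thus shared the lines of their peaks but not the placement. Both stand near a TIM23 gene of mitochondrial protein import, TIM23-2 and TIM23-1 in the table, and neither of those had a peak in its span. How far 36 bp reads can be assigned to one of such paired copies was not tested.

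PP2CA, also known as AHG3, is a phosphatase prominent in seeds and guard cells. It had the single OE9-1 peak of the set, at chr3:3584013-3584068 with 202 reads, 107 forward and 95 reverse, and none in the other lines. Its midpoint lay 258 bp inside the nearer gene end, at 12.5% of the span. The FDR was 3.24%, rank 2272 of 3733 (60.9%), and the reads equalled the median of the list, 202. The OE9-1 peaks lie mostly outside genes. Of 3577 pairs of a gene and an OE9-1 peak within 1 kb, 39.8% had the midpoint inside the gene, against 66.0% of 7420 in OE3-1 and 64.2% of 4037 in OE17-4. PP2CA was of the less common kind for its line.

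AHG1 (ABA-hypersensitive germination 1) acts chiefly in seeds, and unlike the other members it is insensitive to inhibition by most receptors. It had an OE3-1 peak at chr5:21028686-21028777 with 257 reads, 136 forward and 121 reverse, the most reads of the 4 OE3-1 peaks of the set. The midpoint lay 457 bp from the nearer end, at 80.8% of the span. With an FDR of 1.36% it ranked 1673 of 5332 (31.4%). The nearest peaks of OE9-1 and OE17-4 were 17.6 and 29.4 kb away.

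The HAI genes are named for strong induction by abscisic acid. HAI1 had an OE17-4 peak at chr5:23894718-23894875 with 133 reads, 66 forward and 67 reverse. It was 158 bp long, the widest of the 3 OE17-4 peaks of the set, and lay 392 bp inside the nearer gene end, at 15.5% of the span. Its FDR was 0.76%, rank 1441 of 3426 (42.1%). An OE9-1 peak at chr5:23900665-23900689 with 177 reads also bears the name HAI1 in the deposited list, but it lay 3.73 kb beyond the gene and was not counted.

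HAI2 was without a peak by the 1 kb rule and was the member closest to it. An OE17-4 peak at chr1:2279169-2279348 with 142 reads and an FDR of 1.91% lay 1.40 kb away, inside the neighbouring gene SMO2-1, a sterol 4-alpha-methyl oxidase gene. HAI3 stands beside SMO2-2, the paralogue of SMO2-1, and neither HAI3 nor SMO2-2 had a peak. The nearest peaks to HAI3 lay 5.22 kb away in OE3-1, 17.1 kb in OE17-4 and 55.6 kb in OE9-1.

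ABI1 and ABI2 are the founding members of the clade, identified through dominant mutants insensitive to the hormone. The nearest OE3-1 peak to ABI1 lay 3.81 kb away, over the disease resistance gene RPS2, and those of OE9-1 and OE17-4 lay 10.0 and 12.9 kb away. For ABI2 the distances were 3.73 kb in OE3-1, 5.66 kb in OE9-1 and 7.62 kb in OE17-4. No peak at either gene was detected by the authors' calls, and without library depth it cannot be said how weak a signal these lists would have missed.

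**Figure D2:**
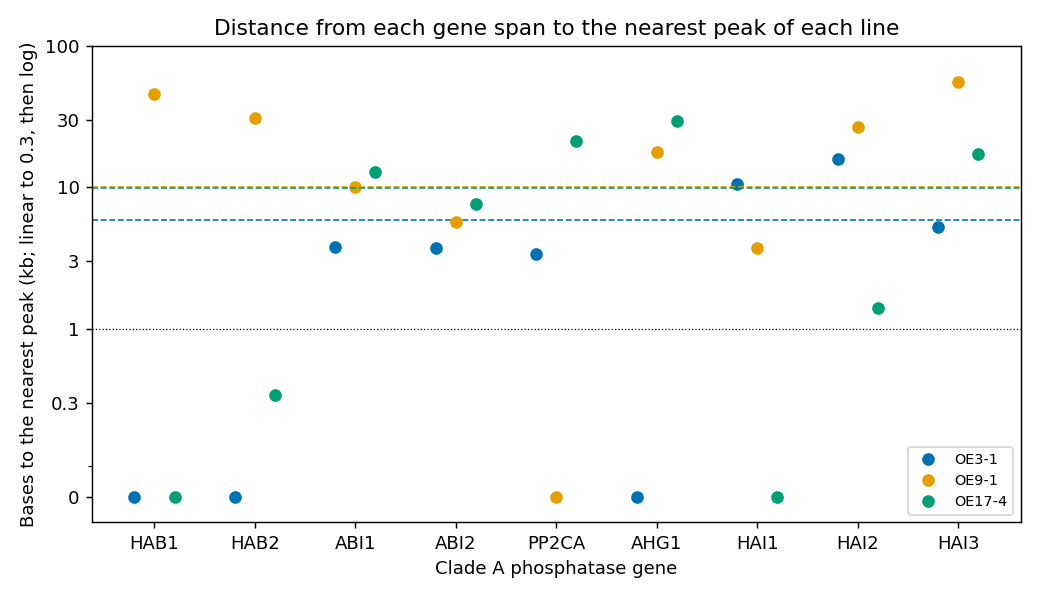
Bases between each gene span and the nearest peak of each line, in kb, on an axis that is linear to 0.3 kb and logarithmic above it. Points at 0 overlap the gene, dashed lines are the medians over all protein-coding genes in the colour of the line, and the dotted line marks 1 kb. OE9-1 points lie above 3 kb for each gene except PP2CA.

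Over all 9 members the median distance to the nearest peak was 3.73 kb in OE3-1, 17.6 kb in OE9-1 and 7.62 kb in OE17-4. Over all protein-coding genes the medians were 5.89, 10.0 and 9.87 kb in the same order. The farthest members were HAI2 at 15.8 kb in OE3-1, HAI3 at 55.6 kb in OE9-1 and AHG1 at 29.4 kb in OE17-4. The 90th percentiles over all genes were 42.0, 37.9 and 37.9 kb, so HAI3 and HAB1 in OE9-1, at 55.6 and 45.6 kb, were the values beyond that percentile.

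The midpoints of 7 of the 8 peaks lay inside the member gene. All 4 OE3-1 peaks did, as did the OE9-1 peak and 2 of the 3 OE17-4 peaks. Among all pairs of a protein-coding gene and a peak within 1 kb, 66.0% did in OE3-1, 39.8% in OE9-1 and 64.2% in OE17-4. In OE3-1, where midpoints inside genes lay a median of 744 bp from the nearer end, the peaks of HAB1 and the second peak of HAB2 were deeper, at 1545 and 1309 bp, and those of AHG1 and the first of HAB2 shallower, at 457 and 645 bp. In OE17-4, with a median of 466 bp, HAB1 lay deeper at 1682 bp and HAI1 shallower at 392 bp. The PP2CA peak was shallower than the OE9-1 median of 490 bp.

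Forward and reverse reads were nearly equal at HAB1, PP2CA, AHG1 and HAI1 and unequal at HAB2. The authors' normalized difference is the gap between strands as a fraction of all reads of a peak. At HAB2 it was 0.37 for the first OE3-1 peak, with 134 forward and 61 reverse reads, and 0.2 for the second, with 100 forward and 149 reverse reads. The OE17-4 peak counted for HAB2 had 0.22. The first and the third exceeded the 90th percentile of their lists, 0.270 and 0.180, while the second lay between the OE3-1 median of 0.110 and that percentile. The other 5 peaks ran from 0.00752 at HAI1 to 0.07 at HAB1 in OE3-1, none above the median of its own list.

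**Figure D3:**
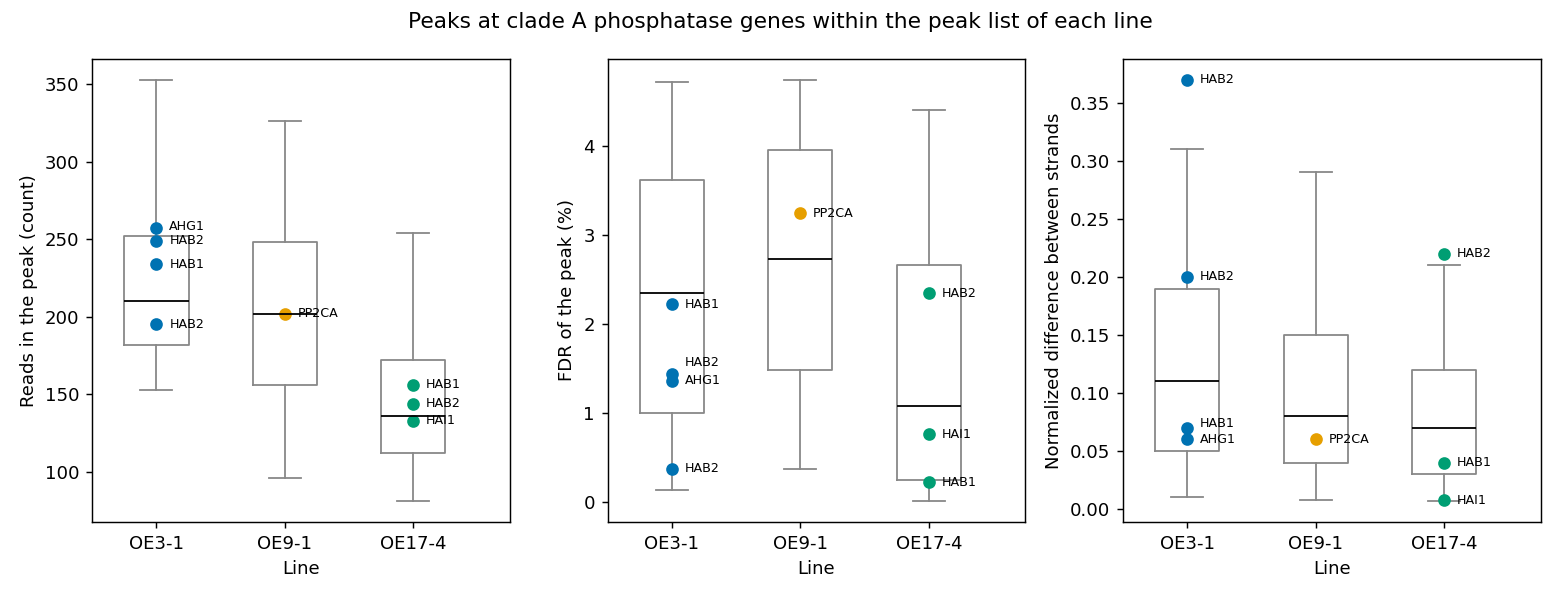
Reads, FDR in percent and normalized difference between strands for the 8 peaks, plotted as points over the distribution of all peaks of each line. Boxes run from the lower to the upper quartile with the median as a line, and whiskers from the 5th to the 95th percentile. In reads all points but AHG1 lie within the boxes, and in strand difference HAB2 peaks are the highest points.

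In reads the peaks were ordinary members of their lists. Quartiles in OE3-1 were 182 and 252 reads, and the peaks of HAB1 and HAB2 fell between them with AHG1 just above at 257. The OE17-4 peaks, with 133 to 156 reads, lay between the quartiles of 112 and 172. All 4 OE3-1 peaks had an FDR below the median of that list, 2.35%. In OE17-4 the FDRs of HAB1 and HAI1 were below the median of 1.08% and that beside HAB2 above it.

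The genes that stand next to the phosphatases were counted as well. Of 18 neighbours, the next protein-coding gene on either side of each member, 4 had a peak in their span in any line (22.2%), where 26.8% of all protein-coding genes did. They were RPS2 in OE3-1, HLL and SMO2-1 in OE17-4 and AT3G11420 in OE9-1. Farther from PP2CA, the translation initiation factor gene EIF3G1 (AT3G11400) held an OE3-1 peak at chr3:3580329-3580399 and an OE9-1 peak at chr3:3580406-3580533, only 6 bases apart and over 3 kb from the phosphatase gene.

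The rest of the pathway was counted by the same rule in 59 genes, including 8 listed as partners of the phosphatases. Of the 59, 11 had a peak in OE3-1 (18.6%), 11 in OE9-1 (18.6%) and 10 in OE17-4 (16.9%). Set against the backgrounds of 22.5%, 12.2% and 13.9%, each exact 95% interval included the background, with 9.69 to 30.9% for the first and second and 8.44 to 29.0% for the third. In any line 27 had a peak (45.8%, against 41.0%), in at least 2 lines 5 (8.47%, against 7.20%) and in all 3 lines 0. Of pairs of a pathway gene and a peak, the midpoint lay inside the gene in 9 of 13 in OE3-1, 3 of 12 in OE9-1 and 8 of 10 in OE17-4. Over all protein-coding genes the shares were 66.0%, 39.8% and 64.2% in that order.

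The receptors, which bind the hormone and inhibit the phosphatases, had no OE3-1 peak at any of the 14 PYR/PYL genes (exact 95% interval 0 to 23.2%, background 22.5%). An OE9-1 peak was present at 4 (28.6%, background 12.2%) and an OE17-4 peak at 2 (14.3%, background 13.9%). Their median length was 1336 bp, shorter than that of the phosphatases. PYL13 had the best-placed receptor peak, an OE9-1 peak with 214 reads and an FDR of 0.77% that lay 22 bases outside the gene. RCAR1 (PYL9) had an OE17-4 peak with 117 reads at 568 bases, and PYR1 an OE9-1 peak with 110 reads at 70 bases. PYL6 was the receptor gene with peaks in 2 lines, with 124 reads inside the gene in OE17-4 and 253 reads in OE9-1 at 981 bases, just within the limit of 1 kb.

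Among the SnRK2 kinases, a family that includes targets of the phosphatases, 6 of 10 genes had a peak in any line (60.0%, exact 95% interval 26.2 to 87.8%, background 41.0%). By line these were 3 in OE3-1 (background 22.5%), 4 in OE9-1 (40.0%, background 12.2%) and 1 in OE17-4 (10.0%, background 13.9%). None of the OE9-1 peaks overlapped a kinase gene. Of the 3 kinases most strongly activated by abscisic acid, SNRK2.2 and OST1 (SnRK2.6), the guard cell kinase, each had an OE9-1 peak, at 640 and 357 bases from the gene, and SNRK2.3 had none. SNRK2-8 (SnRK2.8) was flanked by a pair of OE9-1 peaks. The stronger, with 436 reads and an FDR of 0.32% (4.34% of the list), lay 145 bases outside the gene, over AT1G78280. SNRK2.1 had peaks in OE3-1 and OE9-1, with 208 and 241 reads, and SNRK2.10 in OE3-1 and OE17-4, with 166 and 115 reads. The OE9-1 peak of SNRK2.1 lay 705 bases outside the gene, over AT5G08600. The OE3-1 peak of SNRK2.10 lay 633 bases outside the gene, over RECQ4B. By gene span alone 0 of 10 kinase genes had peaks in at least 2 lines (background 3.21%). SNRK2.4 had an OE3-1 peak inside the gene with 223 reads.

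**Figure D4:**
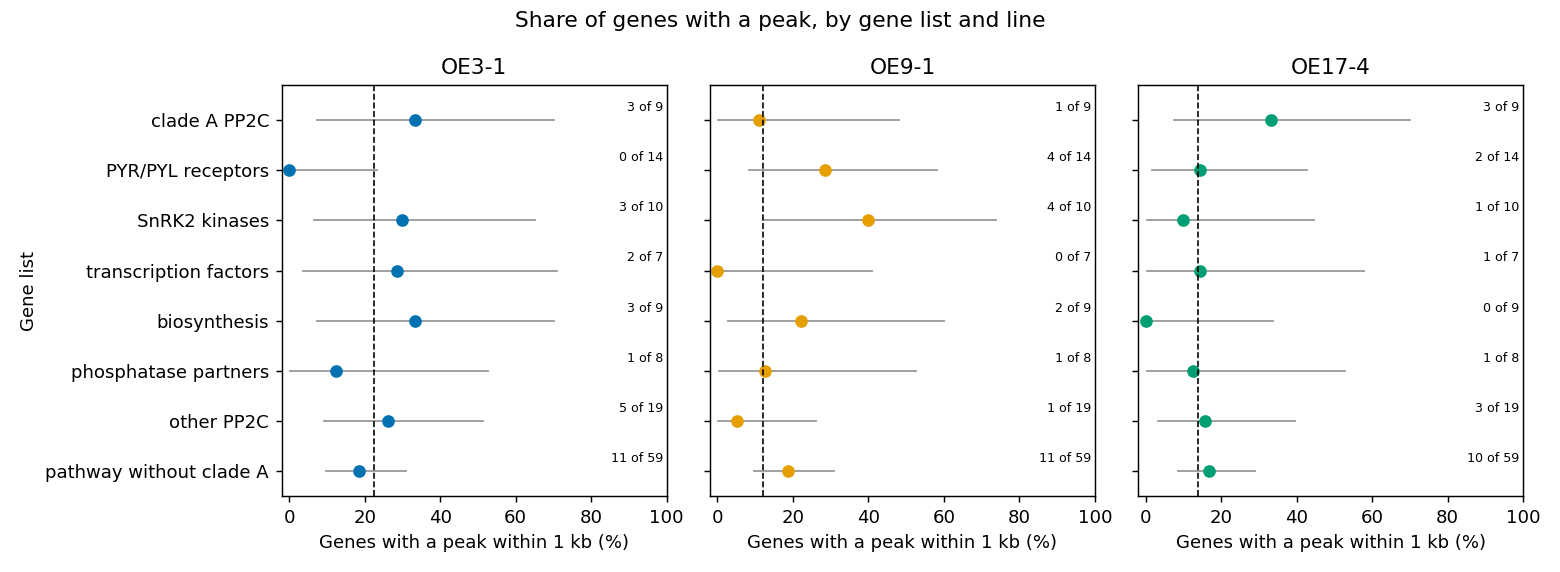
Share of genes with a peak within 1 kb, in percent, for each gene list (rows) and line (panels). Points are shares, bars exact 95% intervals for counting error, the dashed line is the share among all protein-coding genes, and the counts are printed at the right. The interval of the clade A phosphatases includes the dashed line in each panel.

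Downstream, the transcription factors that the kinases phosphorylate or that act with them had peaks at 3 of 7 genes in any line (42.9%, background 41.0%). ABF2 had an OE3-1 peak inside the gene with 376 reads and an FDR of 0.57%, ABF4 an OE3-1 peak with 178 reads, and ABI4 an OE17-4 peak with 150 reads. Of the ion channels and NADPH oxidases of the guard cell response, 3 of 4 had a peak in any line (exact 95% interval 19.4 to 99.4%, background 41.0%). RBOH F, the longest of them at 7211 bp, had an OE3-1 peak with 168 reads and an OE17-4 peak with 101 reads, 79 bases apart, a closeness reached by 15.1% of genes with both lines. RBOHD had an OE17-4 peak with 127 reads, and the anion channel gene OZS1 (SLAC1) an OE3-1 peak with 217 reads at 131 bases. That OZS1 peak lay over AT1G12470.

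Hormone synthesis genes had peaks at 5 of 9 in any line (55.6%, background 41.0%). By line these were 3 in OE3-1 (33.3%, background 22.5%), 2 in OE9-1 (22.2%, background 12.2%) and 0 in OE17-4 (background 13.9%). ABA3, which makes the cofactor of the last enzyme, and AAO3, that enzyme, had OE3-1 peaks, as did ABA1, the zeaxanthin epoxidase. NCED2 and NCED9, which cleave carotenoid precursors, had OE9-1 peaks, each with 242 reads. The NCED2 peak had its midpoint 154 bp inside the nearer gene end, and the NCED9 peak lay 191 bases outside the gene. NCED3, the drought-induced family member, had none. The CYP707A genes, whose products break the hormone down, had OE17-4 peaks at 2 of 4 (exact 95% interval 6.76 to 93.2%, background 13.9%), CYP707A2 with 148 reads and CYP707A4 with 97. Of 3 transporter genes 1 had a peak (33.3%, against 41.0% in any line), the importer gene ABCG40 with an OE17-4 peak at 428 bases.

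Of 8 genes listed as partners of the phosphatases, 2 had a peak in any line (background 41.0%). PUB13, a ubiquitin ligase of ABI1, had an OE17-4 peak with 275 reads, and AT1G60200, which has no name in the table, had peaks in OE3-1 and OE9-1. The chromatin remodelling genes BRM and SWI3B and the dormancy gene DOG1 had none.

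Of 19 other phosphatases of type 2C, 5 had a peak in OE3-1 (26.3%, background 22.5%), 1 in OE9-1 (5.26%, background 12.2%) and 3 in OE17-4 (15.8%, background 13.9%). AT2G30020 (AP2C1), which acts on mitogen-activated protein kinases, held an OE3-1 peak at chr2:12814395-12814561 with 162 reads and an OE17-4 peak at chr2:12814514-12814641 with 127 reads. These overlapped, as did peaks at 106 of the 1027 genes with both lines (10.3%). HAB1 and HAB2, the only clade A genes with both lines, were not among them. AT5G66080, listed as a clade D member, had 3 OE3-1 peaks and 1 OE17-4 peak within 1 kb, the closest of both lines 91 bases apart. Only 1 of them, an OE3-1 peak, lay in the gene. The closest pair lay over the neighbour AT5G66090, at 760 bases (OE3-1) and 469 bases (OE17-4) from AT5G66080. The remaining OE3-1 peak lay over AT5G66070. KAPP, which binds receptor kinases, had a pair of OE3-1 peaks with 136 and 192 reads. AT4G38520, also of clade D, had an OE17-4 peak with 221 reads and an FDR of 0.39%.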

How the data were processed

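The deposited lists hold 1 row per peak and were made per line. Per the submitters' processing notes the build was TAIR10. How reads were aligned, how peaks were called and whether inputs entered is not given in the sources used here. The counts of reads (total, forward, reverse) were deposited by the authors without normalization. FDR in percent, the normalized difference as a fraction and a Wilcoxon p-value per peak are the authors' values, per the file headers. Deposited lengths were mostly end minus start in OE3-1 and mostly 1 bp more elsewhere.

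Empty rows and repeated regions were dropped. Gene names and spans came from the RefSeq table of TAIR10.1, and none of its coordinates is printed. Its rows were read whole, including those with a number sign in the synonyms, which gives 27444 protein-coding genes on 5 nuclear chromosomes. Peaks and genes were joined by overlap of at least 1 bp after adding 1 kb (Python 3.11.15, pandas 2.3.3, numpy 2.4.6). The join was checked against a direct comparison of simulated intervals. Shares have exact (Clopper-Pearson) 95% intervals (scipy 1.17.1). Groups follow the antibody in the labels, and no test between groups was possible.

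Named are all members, list genes with peaks in at least 2 lines, up to 4 genes per list by FDR rank, and neighbours that hold a peak. The rest were chosen after their values were seen. The table has no descriptions, so other type 2C phosphatases were 10 genes listed by hand and 9 more whose synonyms name the family. Members and lists were chosen with earlier results of these data known. Sequences were not used here.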

Additional observations from a re-analysis of the deposited data

How the results depend on the processing

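Alternatives were gene spans alone, 500 bp or 2 kb on both sides, midpoints in place of overlap, the better 50% of each list by FDR, an FDR of at most 1%, lists without rows written with 3 dots, the authors' gene column, omission of peaks over another protein-coding gene, and omission of a line. Of 75 values under an alternative, 60 stayed within 1.5 times and 15 moved. At an FDR of at most 1%, member genes with a peak fell to 1 in OE3-1, 0 in OE9-1, 3 in any line and 0 in at least 2 lines, where 6.57%, 2.07%, 14.9% and 0.747% of all protein-coding genes had one. The midpoints inside genes fell to 3, and the other pathway genes with a peak in any line to 5 of 59 (14.9% of all genes). In the better 50% by FDR these were 0 in OE9-1, 1 in at least 2 lines and 11 for the pathway (6.27%, 2.03% and 23.9% of all genes). The authors' gene column gave 2 in OE9-1 (10.3% of all genes), through the distant HAI1 peak. Spans alone, and the omission of peaks over another gene, each left 1 gene, HAB1, in at least 2 lines (3.21% and 4.54% of all genes). The count in at least 2 lines was 0 without OE3-1 (replicate 1), 2 without OE9-1 (replicate 2) and 0 without OE17-4 (replicate 3). In that order 1.64%, 3.74% and 2.68% of all genes had such peaks. The midpoints inside genes then ranged from 3 to 6, lowest without OE3-1. In any line the count was 4 without each line in turn, against 24.5%, 32.7% and 32.0% of all genes. The 2 kb limit added HAI2 in OE17-4, giving 4 genes there, where 19.0% of all genes had a peak. Stricter limits leave fewer peaks, and whether the moves come from this alone was not tested. No paired analysis was possible because the inputs were not analysed here and the lines form a single group. Library depth is unknown, so absent peaks do not show absent binding.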
